A study of Mus musculus with 25 samples.

Results

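The genes of 9 receptors through which hypothalamic and neural signals set hormone release from pituitary melanotrophs and corticotrophs were followed in the pituitaries of shRb mice. Those that inhibit were Drd2, the dopamine D2 receptor, Gabbr1 and Gabbr2, the subunits of the GABA-B receptor, and Sstr1, Sstr2, Sstr3 and Sstr5, which bind somatostatin. Those that stimulate were Crhr1, the receptor of corticotropin-releasing hormone, and Avpr1b, the pituitary receptor of vasopressin. They were chosen by symbol and not by a rule on their values, but with earlier results of these data known. All 9 were among the 15315 genes listed for 12 mice of a long-term experiment, and 7 (all but Sstr2 and Sstr5) were among the 14007 genes listed for 13 mice of a short-term experiment. Each receptor with a line passed the filter on low reads in its experiment.

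Melanotrophs of the intermediate lobe and corticotrophs of the anterior lobe both make the hormone precursor encoded by Pomc. Melanotrophs are held in check mainly by dopamine and GABA that nerve fibres from the hypothalamus release, and the D2, somatostatin and GABA-B receptors act through inhibitory G proteins that lower cyclic AMP and open potassium channels. Corticotrophs are driven by corticotropin-releasing hormone, whose receptor raises cyclic AMP, and by vasopressin, whose receptor acts through phospholipase C and calcium.

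All mice were Rosa26 rtTA Col1a1 shRb5-4 animals, in which doxycycline (dox) in the drinking water turns on an shRNA against Rb together with GFP. In the long-term experiment, 3 female mice had been on dox for 6 weeks (6w+dox), 2 female and 2 male mice had been on dox for 12 weeks (12w+dox), and 3 female and 2 male mice had been on dox for 6 weeks and then off it for 6 weeks (12w-res). In the short-term experiment, 3 male mice had been on dox for 16 weeks by the labels (16w +dox), and the others had then been taken off it for 1 day (1d -dox, 4 females), 3 days (3d -dox, 3 males) or 5 days (5d -dox, 3 females). The line carries a single shRNA from 1 embryonic stem cell clone, and the Rosa26 locus drives the activator throughout the body, so the shRNA was not limited to the pituitary or to its Pomc cells. Sucrose was given with dox and left out when dox was removed. A group of mice never given dox was not analysed here. Sex and group cannot be told apart in the 1d -dox and 5d -dox comparisons with 16w +dox. The short-term libraries were depleted of ribosomal RNA and the long-term libraries were enriched for poly(A) RNA, so levels were compared only within an experiment. The unit of all levels is FPM, the authors' read counts put on a common library size with the size factors of DESeq2. In bulk tissue, fewer cells of a type and less RNA per cell cannot be told apart.

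Libraries held 19066053 to 28968476 reads on genes in the long-term mice and 9573101 to 13036900 in the short-term mice. Rb1 lay between 1.86 and 5.09 FPM in the 7 long-term mice on dox and between 16.1 and 20.3 FPM in the 5 12w-res mice, while in the short-term mice it was between 3.47 and 6.03 FPM in every group and GFP went from a mean of 1246 FPM at 16w +dox to 11.7 FPM at 5d -dox. Pomc took up 12.9% to 43.2% of the reads in the long-term mice, with the 12w-res mice at the top (39.1% to 43.2%), and 4.96% to 17.9% in the short-term mice. The melanotroph markers Pax7 and Oacyl were at 106 FPM or more and 330 FPM or more in every library, and Tbx19, a factor of both Pomc cell types, was at 24.6 FPM or more. Other cell types moved with the groups. The summed level of 6 somatotroph, lactotroph and thyrotroph markers was 56831 to 92022 FPM at 6w+dox, 1154 to 12506 FPM at 12w+dox and 16078 to 30476 FPM in 12w-res. The part of these shifts in the receptor results below was not tested.

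Per length of transcript, Drd2 was by far the most abundant of the receptors in every group. Its mean level per kb of the longest transcript was 88.5 ± 9.92 FPM per kb at 6w+dox (SD, n = 3), 224 ± 46.4 at 12w+dox (SD, n = 4) and 162 ± 23.2 in 12w-res (SD, n = 5), which placed it at the 97.0, 99.4 and 98.6 percentiles of all genes with a known length. Sstr1 came next at 40.0, 42.1 and 18.4 FPM per kb, and its mice did not overlap in level per kb with those of Drd2 or of the receptor after it in any long-term group. Below Sstr1 the order was not the same in each group. At 6w+dox it ran Crhr1 (7.71 FPM per kb), Gabbr1 (6.69), Sstr3 (4.80), Avpr1b (1.63), Sstr2 (0.987), Sstr5 (0.940) and Gabbr2 (0.561), and only Sstr3 and Avpr1b were neighbours without overlap. At 12w+dox it ran Gabbr1 (7.45), Crhr1 (2.09), Gabbr2 (1.76), Sstr3 (1.09), Avpr1b (0.375), Sstr2 (0.364) and Sstr5 (0.155), with gaps between the mice only after Gabbr1 and after Sstr3. In 12w-res no neighbours below Sstr1 were apart. In the short-term mice, Drd2 (47.8 to 59.6 FPM per kb) again stood clear of Sstr1 (2.39 to 7.04), Gabbr1 (1.81 to 2.20) and Gabbr2 (1.12 to 1.38), and the means of Sstr3, Crhr1 and Avpr1b stayed under 1 FPM per kb.

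**Figure D1:**
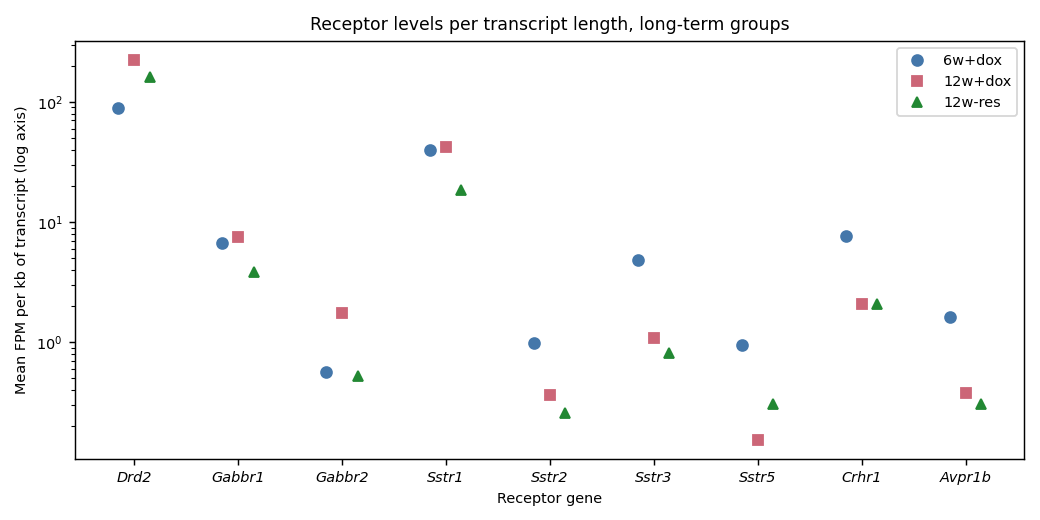
Mean level of each receptor gene in FPM per kb of its longest transcript, on a log axis, for the 6w+dox (circles, n = 3), 12w+dox (squares, n = 4) and 12w-res (triangles, n = 5) mice. Drd2 is at the top in each group, Sstr1 follows, and Gabbr2 lies lowest of all at 6w+dox but at rank 5 at 12w+dox.

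Between 6 and 12 weeks on dox, 2 of the 9 receptors rose and 3 fell, while 4 did not pass the test. Those that rose were Drd2 and Gabbr2, and those that fell were Sstr3, Sstr5 and Crhr1, so receptors that act through inhibitory G proteins were found in both directions. Genes count as called here where limma's adjusted p was below 0.05 and the log2 fold change lay above 1 or below -1. By this rule 7.2% of all genes tested were called in this comparison (3.15% higher and 4.04% lower). The median log2 fold change of the receptors was -0.96 and that of all genes -0.01.

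Drd2, on chromosome 9 (49340360 to 49408177 on the plus strand, GRCm38.p6), inhibits hormone release and growth of melanotrophs and lactotrophs when dopamine binds it. It was at 252, 202 and 222 FPM in the 6w+dox mice and at 410, 685, 563 and 624 FPM in the 12w+dox mice. The lowest 12w+dox mouse was well above the highest 6w+dox mouse. The log2 fold change of FPM + 0.5 was 1.32 ± 0.18 (SE; limma, adjusted p = 0.00048), a 2.53-fold rise of the mean. Of 7 melanotroph and corticotroph markers, 1 rose, 1 fell and 5 did not pass, with a median log2 fold change of -0.24 and 5 values below 0. The one that rose was the melanotroph factor Pax7 (1.32 ± 0.16, SE; limma, adjusted p = 0.00024), from 106 to 117 FPM at 6w+dox to 224 to 393 FPM at 12w+dox, and the one that fell was Neurod1.

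Gabbr2 and Gabbr1 encode the subunits that pair to make a working GABA-B receptor, Gabbr1 binding GABA and Gabbr2 coupling to the G protein. Gabbr2 (chromosome 4, 46662318 to 46991714 on the minus strand) was at 2.33, 4.32 and 3.02 FPM in the 6w+dox mice. In the 12w+dox mice it was at 6.21, 8.57, 10.9 and 14.8 FPM, without overlap. Its log2 fold change was 1.48 ± 0.32 (SE; limma, adjusted p = 0.0064). The 2 males of the 12w+dox group were its highest mice, and in females alone the log2 fold change was 1.10 (limma, adjusted p = 0.054), so the call was lost. Gabbr1 (chromosome 17, 37045966 to 37074305 on the plus strand) was the more abundant subunit per kb in every group, at 23.9, 29.3 and 52.0 FPM in the 6w+dox mice and at 30.1, 36.6, 47.1 and 42.5 FPM in the 12w+dox mice. These groups overlapped and the difference did not pass the test (log2 fold change 0.21 ± 0.22, SE; limma, adjusted p = 0.52). The difference between the changes of the subunits was not itself tested.

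The stretches just before the annotated start of Drd2 and of both GABA-B receptor genes are shown because Drd2 and Gabbr2 were the receptors that rose with time on dox, and Gabbr1 is the partner of Gabbr2. They were taken from RefSeq (GRCm38.p6), which gave a window for 6 of the 9 receptors, and are written 5′ to 3′ on the strand of the gene, with the motif GGGCGG (the GC box, on either strand) in capitals.

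Drd2, chr9:49340153-49340359, plus strand: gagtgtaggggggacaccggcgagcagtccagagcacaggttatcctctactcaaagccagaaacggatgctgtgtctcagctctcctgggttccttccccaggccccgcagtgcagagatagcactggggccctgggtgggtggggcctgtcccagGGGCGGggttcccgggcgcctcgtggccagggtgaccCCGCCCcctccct
Gabbr2, chr4:46991715-46991964, minus strand: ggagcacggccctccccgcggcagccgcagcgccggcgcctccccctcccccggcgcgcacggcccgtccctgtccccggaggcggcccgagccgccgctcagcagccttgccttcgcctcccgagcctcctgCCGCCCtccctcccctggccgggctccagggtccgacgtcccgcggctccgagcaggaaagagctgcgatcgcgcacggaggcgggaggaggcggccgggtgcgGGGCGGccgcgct
Gabbr1, chr17:37045716-37045965, plus strand: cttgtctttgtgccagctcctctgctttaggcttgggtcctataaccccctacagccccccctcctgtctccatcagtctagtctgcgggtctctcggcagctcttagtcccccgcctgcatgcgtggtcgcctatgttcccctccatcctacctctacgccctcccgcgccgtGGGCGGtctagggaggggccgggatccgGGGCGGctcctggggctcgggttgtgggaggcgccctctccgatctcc

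Each of these stretches held the GC box at 2 places, a motif found in 32.7% of all 32851 windows of 250 bases before a start. The CpG count was 37 in the window of Gabbr2, 16 in that of Gabbr1 and 15 in that of Drd2 (before the part inside the gene was left out), against a median of 6 over all windows, which put Gabbr2 at percentile 98.1. Neither a cyclic AMP response element (TGACGTCA, 1.55% of all windows), an E2F site (TTTCCCGC, TTTCGCGC, TTTGCCGC or TTTGGCGC, 1.86%) nor a T-box motif (TCACACC, 3.33%) was found in them on either strand. Of the other receptors with a window, Sstr2 had 1 cyclic AMP response element. A match or its lack is a property of these letters and not a measurement of binding.

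The somatostatin receptors were lower at 12w+dox or did not pass the test. Sstr3 (chromosome 15, 78537014 to 78549365 on the minus strand) was at 15.2, 19.2 and 27.2 FPM in the 6w+dox mice and at 3.84, 3.41, 5.36 and 6.00 FPM in the 12w+dox mice, far apart. It fell by 2.02 ± 0.35 on the log2 scale (SE; limma, adjusted p = 0.0019), which is 4.41-fold lower in the mean. Sstr5 (chromosome 17, 25489875 to 25497288 on the minus strand) was at 0.815, 2.67 and 4.22 FPM at 6w+dox against 1.05, 0.204, 0.277 and 0.168 FPM at 12w+dox. The highest 12w+dox mouse, replicate 1, was above the lowest 6w+dox mouse. Sstr5 was called lower (log2 fold change -1.64 ± 0.48, SE; limma, adjusted p = 0.026), but between 6 and 30 reads lay behind each 12w+dox value, and the call was lost when any of 5 of the 7 mice was left out (12w+dox replicates 2, 3 and 4, and 6w+dox replicates 2 and 3; adjusted p from 0.051 to 0.098). It was also lost with sex as a covariate (limma, adjusted p = 0.051) and in females only (adjusted p = 0.19), the 6w+dox mice being all female.

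Sstr2 (chromosome 11, 113619327 to 113626028 on the plus strand), a main target of somatostatin drugs, was barely above detection: 2.85, 2.54 and 0.952 FPM at 6w+dox and 0.558, 0.612, 1.11 and 0.838 FPM at 12w+dox. Its log2 fold change of -0.96 ± 0.31 (SE; limma, adjusted p = 0.041) stayed just under the fold threshold. DESeq2 and edgeR on the recovered reads gave -1.43 (adjusted p = 0.026) and -1.42 (adjusted p = 0.048), and both called it. Sstr2 lies over Slc39a11 on the other strand, and whether the counting used strand is not given in the sources used here. Sstr1 (chromosome 12, 58211421 to 58216037 on the plus strand), the most abundant of the somatostatin receptors, was at 123, 69.3 and 48.7 FPM at 6w+dox and at 91.4, 78.3, 65.5 and 104 FPM at 12w+dox. Its groups overlapped fully (log2 fold change 0.16 ± 0.38, SE; limma, adjusted p = 0.80).

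Crhr1 and Avpr1b are the receptors through which the brain stimulates corticotrophs. Crhr1 (chromosome 11, 104130463 to 104175523 on the plus strand) was at 11.3, 21.4 and 24.3 FPM in the 6w+dox mice and at 6.84, 2.33, 5.70 and 5.70 FPM in the 12w+dox mice, without overlap, and fell by 1.80 ± 0.39 on the log2 scale (SE; limma, adjusted p = 0.0060). Avpr1b (chromosome 1, 131599114 to 131612000 on the plus strand) was at 1.11, 8.82 and 9.73 FPM at 6w+dox and at 2.65, 0.437, 1.39 and 1.56 FPM at 12w+dox. At 6w+dox, 2 of the 3 mice were well above every 12w+dox mouse, and replicate 1 was below 3 of the 4. The log2 fold change of -1.54 ± 0.63 did not pass the test (SE; limma, adjusted p = 0.090). Without that mouse it was -2.41 (limma, adjusted p = 0.011), and DESeq2 with all mice gave -2.12 (adjusted p = 0.018).

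The same 6w+dox mouse was the highest of its group for Drd2, Sstr1 and Sstr2, and Pomc took up 32.2% of its reads against 20.0% and 13.6%. It was also the lowest for Crhr1, Sstr3, Sstr5, Gabbr1 and Gabbr2. So it was for the corticotroph factor Neurod1 (5.88 FPM against 8.28 and 12.7 FPM) and for Pou1f1, a factor of somatotrophs, lactotrophs and thyrotrophs (23.9 FPM against 79.6 and 122 FPM). All 6 markers of these cell types fell between 6w+dox and 12w+dox, of which Gh fell by 4.57, Prl fell by 4.32 and Pou1f1 fell by 2.89 on the log2 scale, and so did all 5 neural lobe and pituicyte markers. Among the markers of the Pomc lineage, Neurod1 fell by 1.84 ± 0.49 (SE; limma, adjusted p = 0.017) and Pax7 rose. The part of these shifts in the changes of Sstr3, Sstr5, Crhr1 and Drd2 was not tested. Groups did not overlap for 4 of the 9 receptors (Drd2, Gabbr2, Sstr3 and Crhr1), and for 25.2% of all genes. An exact two-sided permutation test between 6w+dox and 12w+dox gave p = 0.057 for each of Drd2, Gabbr2 and Sstr5. For Sstr3 and Crhr1 the same permutation test gave p = 0.029, the smallest that these group sizes allow.

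**Figure D2:**
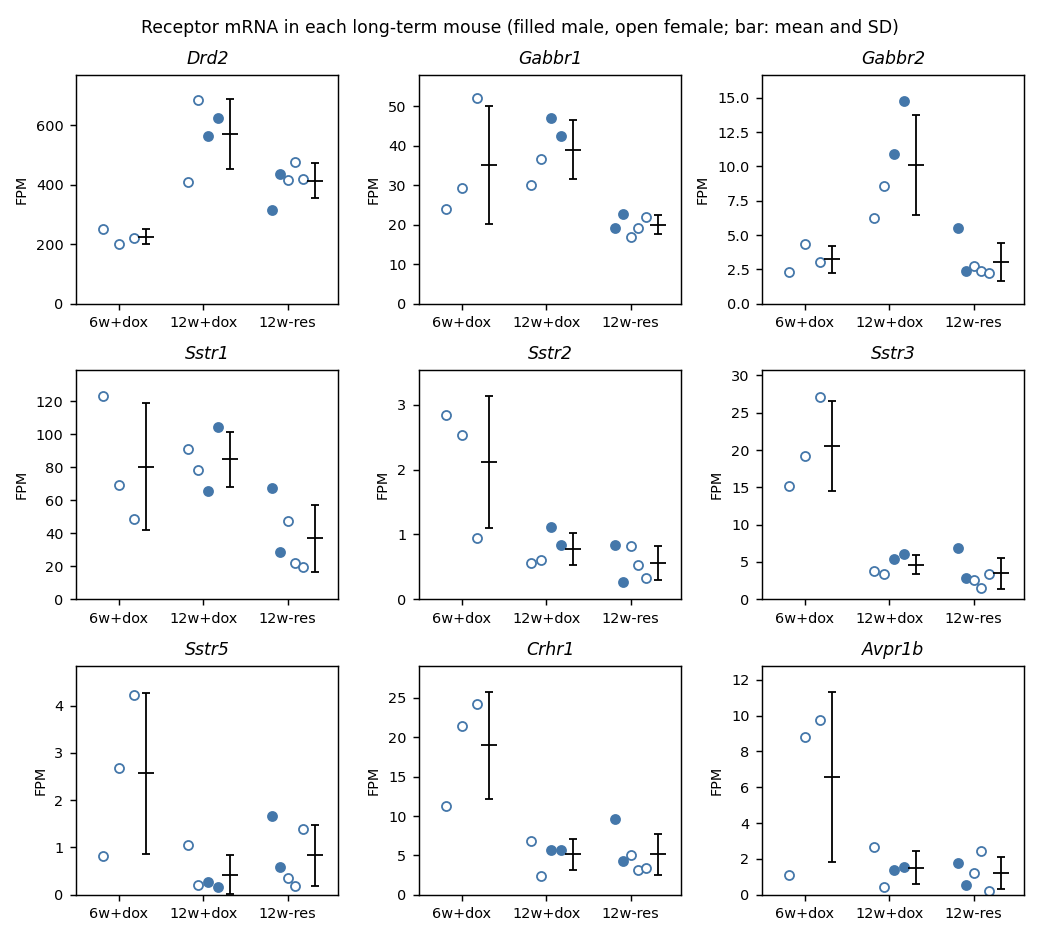
Level in FPM of each receptor gene in each of the 12 long-term mice (filled points male, open points female), with the mean and SD of the 6w+dox, 12w+dox and 12w-res groups beside the points; each panel has its own axis from 0. Drd2 and Gabbr2 are higher at 12w+dox than at 6w+dox in every mouse, Sstr3 and Crhr1 are lower in every mouse, and Gabbr1 and Gabbr2 are lower in every 12w-res mouse than in any 12w+dox mouse.

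After 6 weeks off dox, 2 receptors were lower than in tumors of mice kept on dox for 12 weeks: Gabbr2 and Sstr1. None was called higher. All 5 pericyte and smooth muscle markers were called higher in 12w-res (summed level 440 to 545 FPM against 109 to 259 FPM at 12w+dox), as were 5 of 6 endothelial markers (196 to 268 FPM against 61.2 to 128 FPM). All 6 proliferation markers were called lower (52.0 to 58.1 FPM against 420 to 563 FPM). Their part in the receptor differences was not tested. In this comparison 11.3% of all genes were called (6.24% higher and 5.04% lower), against 2 of the 9 receptors. The median log2 fold change of the receptors was -0.45, and 8 of the 9 values were below 0, against a median of -0.00 over all genes.

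Gabbr2 was at 5.51, 2.38, 2.73, 2.36 and 2.21 FPM in the 12w-res mice, each below the lowest 12w+dox mouse (6.21 FPM). It fell by 1.59 ± 0.28 on the log2 scale (SE; limma, adjusted p = 0.00066), and it stayed called without any single mouse. Gabbr1 was at 19.3, 22.7, 16.8, 19.2 and 22.0 FPM, again below every 12w+dox mouse. Its log2 fold change of -0.94 ± 0.20 (SE; limma, adjusted p = 0.0021) was under the fold threshold, so it was not called. Without 12w+dox replicate 1, the lowest of its group, it was -1.05 (adjusted p = 0.0015). For both subunits an exact two-sided permutation test over the 9 mice gave p = 0.0079, the smallest that 4 against 5 mice allow. Groups without overlap were seen for these 2 receptors and for 34.5% of all genes.

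Sstr1 was at 67.5, 28.8, 47.3, 21.8 and 19.6 FPM in the 12w-res mice. The highest of them, replicate 1, was just above the lowest 12w+dox mouse (65.5 FPM). Sstr1 fell by 1.32 ± 0.34 on the log2 scale (SE; limma, adjusted p = 0.0069), or 2.29-fold in the mean, and stayed called without any single mouse. Drd2 was at 316, 436, 417, 476 and 420 FPM, with a mean between those of the other groups and mice that overlapped with 12w+dox. Its difference from 12w+dox passed the adjusted p but not the fold threshold (log2 fold change -0.45 ± 0.16, SE; limma, adjusted p = 0.036).

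For the receptors that had fallen or were low by 12 weeks on dox, no difference between 12w-res and 12w+dox passed the test. Crhr1 was at 9.67, 4.28, 5.05, 3.19 and 3.43 FPM in 12w-res (log2 fold change -0.02, 95% interval -0.75 to 0.70). Sstr3 was at 6.92, 2.91, 2.59, 1.54 and 3.32 FPM (-0.49, interval -1.15 to 0.18), Sstr5 at 1.66, 0.581, 0.364, 0.177 and 1.38 FPM (0.48, interval -0.42 to 1.38). Avpr1b was at 1.77, 0.528, 1.23, 2.42 and 0.221 FPM (-0.26, interval -1.44 to 0.91) and Sstr2 at 0.832, 0.264, 0.819, 0.531 and 0.332 FPM (-0.29, interval -0.89 to 0.30). These intervals are wide. 12w-res replicate 1 was the highest of its group for Crhr1, Sstr1, Sstr2, Sstr3, Sstr5 and Gabbr2 and the lowest for Drd2, and it also had the highest Gh, Pou1f1 and Lhb of its group, with Pou1f1 at 34.7 FPM against 9.15 to 16.6 FPM. Prl, on the same marker list, did not go with them. Gh was at 24746 FPM in this mouse and the summed list at no more than 30476 FPM. This leaves Prl near the bottom of the group's 5659 to 11697 FPM.

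This comparison depended on how libraries were scaled. When the total reads of each library set the scale instead, the median of all genes moved to -0.61 and Drd2 (-1.11), Gabbr1 (-1.58) and Sstr3 (-1.06) were called lower as well. With totals that leave Pomc out, the median was -0.18 and Gabbr1 (-1.13) was the receptor added. Of all genes, 772 were called lower in the main fit, 3364 with totals and 1130 with totals without Pomc. The shift of the median is to be taken off these log2 fold changes before they are set beside those above.

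The difference after 6 weeks off dox was also compared between the sexes, as both were present at 12w+dox and in 12w-res. The log2 fold change of Gabbr2 was -1.41 in females and -1.67 in males, that of Gabbr1 -0.77 and -1.08, and that of Sstr1 -1.62 and -0.90. For none of the 9 receptors did the term for the difference between the sexes pass (limma, adjusted p = 0.999 each, unadjusted p from 0.16 to 0.82), and 13 of 15315 genes passed at an adjusted p under 0.05, with 654 at an unadjusted p under 0.05. With 2 or 3 mice of each sex in a group, small differences could not have been seen.

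Measured from the state at which dox was withdrawn, 5 of the 9 receptors were lower in 12w-res than at 6w+dox, and none was called higher. They were Sstr1, Sstr2, Sstr3, Crhr1 and Avpr1b. Of all genes, 11.6% were called (5.81% higher and 5.82% lower). These 6w+dox mice are the same as above, so the comparison is not independent of the first. Sstr3 fell by 2.51 ± 0.34 (SE; limma, adjusted p = 8.2e-05), Crhr1 by 1.83 ± 0.37 (adjusted p = 0.0019) and Sstr2 by 1.25 ± 0.30 (adjusted p = 0.0056) on the log2 scale, each without overlap. The Sstr2 values in 12w-res rested on 5 to 18 reads. With 1 instead of 0.5 added to FPM, its log2 fold change was -0.96 and the call was lost. Avpr1b fell by 1.80 ± 0.60 (adjusted p = 0.032) and Sstr1 fell by 1.16 ± 0.37 (adjusted p = 0.025), both with overlap, and each of these calls was lost when any of 4 mice was left out. For Avpr1b these were 12w-res replicates 2 and 5 and 6w+dox replicates 2 and 3 (adjusted p from 0.066 to 0.15), and for Sstr1 they were 12w-res replicates 4 and 5 and 6w+dox replicates 1 and 2 (adjusted p from 0.056 to 0.13). The 6w+dox mice were all female, and in females only the call of Avpr1b was lost (-1.80, limma, adjusted p = 0.11). Sstr5 had a log2 fold change of -1.16 ± 0.46 (SE; limma, adjusted p = 0.065) and was called without 12w-res replicate 1 (-1.37) or 6w+dox replicate 1 (-1.68).

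Drd2 was higher in every 12w-res mouse than in any 6w+dox mouse. Its log2 fold change of 0.87 ± 0.17 (SE; limma, adjusted p = 0.0017), a ratio of the means of 1.83, was under the fold threshold. Gabbr1 was lower in every 12w-res mouse (-0.72 ± 0.21, SE; limma, adjusted p = 0.018) and also stayed under it. Gabbr2 had means of 3.04 FPM in 12w-res and 3.22 FPM at 6w+dox (log2 fold change -0.11, 95% interval -0.77 to 0.55). Groups without overlap were seen for 5 receptors and for 32.7% of all genes.

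**Figure D3:**
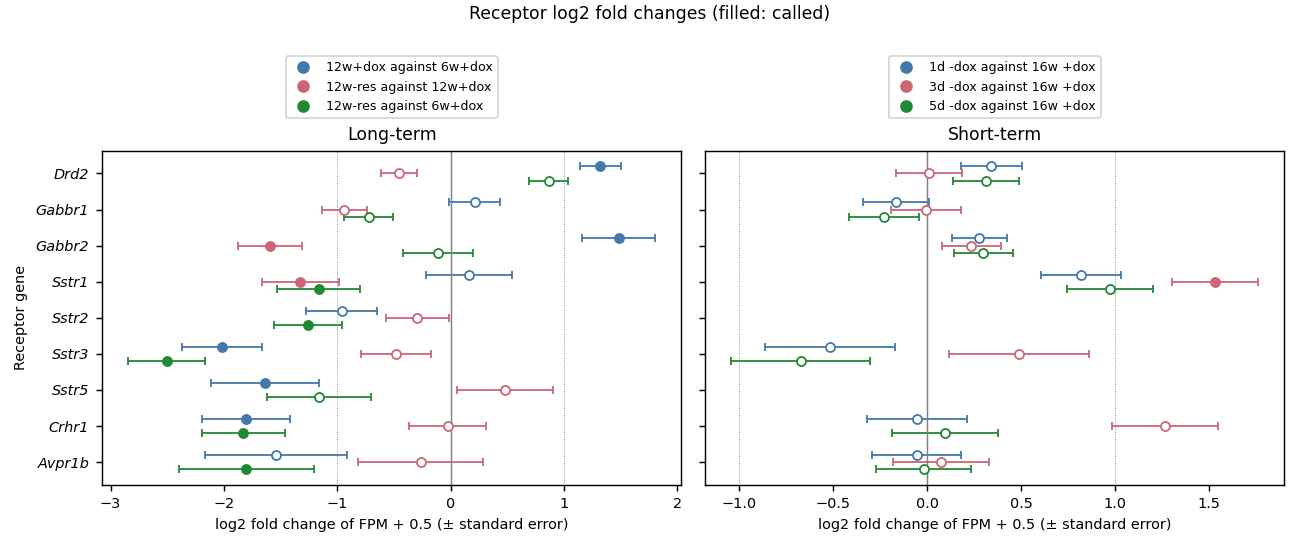
Log2 fold change of FPM + 0.5 with its standard error for each receptor gene, on the left in the 3 long-term comparisons and on the right in the 3 comparisons of mice off dox with 16w +dox; filled points passed the test and the fold threshold (dotted lines at 1 and -1). On the left Drd2 and Gabbr2 are above 1 from 6 to 12 weeks on dox and Sstr3, Sstr5 and Crhr1 below -1, while on the right Sstr1 at 3d -dox is the filled point.

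In the days after dox removal, 1 receptor passed the test at 1 of the 3 time points: Sstr1 rose at 3d -dox. Rb1 did not pass the test at any of the 3 time points (limma, adjusted p from 0.53 to 0.90). At 1d -dox and 5d -dox limma called 0 of the 7 receptors, with 1 each at an unadjusted p under 0.05 (Sstr1), and edgeR and DESeq2 called 0 as well. Of all 13958 genes tested, the share called was 0.043% after 1 day, 0.129% after 3 days and 0.193% after 5 days.

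Sstr1 was at 6.14, 2.70 and 5.59 FPM in the 16w +dox mice and at 15.6, 14.3 and 12.7 FPM in the 3d -dox mice. Every mouse off dox was above every 16w +dox mouse, at 1d -dox (8.38, 7.97, 10.1 and 7.41 FPM) and 5d -dox (10.5, 11.1 and 7.23 FPM) too. The log2 fold change was 1.53 ± 0.23 at 3d -dox (SE; limma, adjusted p = 0.028), 0.82 ± 0.21 at 1d -dox (adjusted p = 0.13) and 0.97 ± 0.23 at 5d -dox (adjusted p = 0.080). The call at 3d -dox was lost in a fit of the 2 groups alone (adjusted p = 0.12) and without 16w +dox replicate 3 (0.060), 3d -dox replicate 1 (0.13) or 3d -dox replicate 3 (0.077), and with 3 against 3 mice an exact permutation test cannot go below p = 0.1. Of all genes, 11.2% were without overlap from 16w +dox after 1 day, 21.6% after 3 days and 19.3% after 5 days. This direction is not that of the long-term mice, where Sstr1 was lower after 6 weeks off dox, but the experiments differ in library type and stage and the difference was not tested.

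Crhr1 was at 0.724, 0.187 and 0.664 FPM at 16w +dox and at 1.37, 1.43 and 3.27 FPM at 3d -dox, without overlap. It did not pass (log2 fold change 1.27 ± 0.28, SE; limma, adjusted p = 0.072), while DESeq2 on the recovered reads gave 1.94 (adjusted p = 0.010) and called it. At 1d -dox (0.274 to 0.772 FPM) and 5d -dox (0.450 to 0.649 FPM) its mice overlapped with those at 16w +dox (0.187 to 0.724 FPM). Of 5 gonadotroph markers, 1 was called higher at 3d -dox, and of 6 somatotroph, lactotroph and thyrotroph markers 0 were called by limma, DESeq2 or edgeR, with 1 at an unadjusted p under 0.05 by limma. All 6 had log2 fold changes above 0 (median 0.64). Their summed level was 136 to 780 FPM at 3d -dox against 175 to 185 FPM at 16w +dox. The gonadotroph gene Lhb was at 7.77 to 24.5 FPM at 3d -dox against 1.95 to 6.00 FPM at 16w +dox (log2 fold change 1.91, limma, adjusted p = 0.048), and the summed gonadotroph markers were at 30.5 to 97.5 FPM against 13.2 to 38.9 FPM. Lhb was called lower after 1 day (-2.57, limma, adjusted p = 0.022) and after 5 days (-2.65, limma, adjusted p = 0.011). The mice at these times were female and the 16w +dox mice male, so sex and time off dox cannot be told apart there. The part of this in the levels of Crhr1 and Sstr1 was not tested.

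Drd2 in the short-term mice was at 135, 82.8 and 153 FPM at 16w +dox, at 149, 148, 154 and 157 FPM at 1d -dox, at 116, 145 and 103 FPM at 3d -dox and at 135, 158 and 155 FPM at 5d -dox. The 16w +dox mouse at 82.8 FPM, replicate 2, was also the lowest of its group for Pax7 (120 FPM) and Oacyl (330 FPM), and it had the highest Gabbr1 (16.1 FPM) and Sstr3 (2.0 FPM) and the lowest Sstr1, Gabbr2, Crhr1 and Avpr1b of its group. The 95% intervals of the log2 fold change of Drd2 were -0.0087 to 0.69 after 1 day, -0.37 to 0.38 after 3 days and -0.060 to 0.69 after 5 days. Gabbr1 was at 8.96 to 16.1 FPM at 16w +dox and 8.28 to 12.1 FPM in the mice off dox. Gabbr2 was at 5.13 to 7.06 FPM at 16w +dox and 5.97 to 9.04 FPM off dox, and the 5d -dox mice (7.21, 7.89 and 8.75 FPM) were all above it (log2 fold change 0.30 ± 0.16, SE; limma, adjusted p = 0.43). Sstr3 (0.113 to 2.45 FPM) and Avpr1b (0 to 0.550 FPM) rested on 4 to 119 and 0 to 18 reads, so that small changes were not detectable at this depth. Avpr1b passed the filter on low reads only through the 3d -dox mice (14, 3 and 12 reads). In 1d -dox replicate 1 Avpr1b had 0 reads, which allows up to 0.0773 FPM (3 reads, counting error only). Between the female groups 5d -dox and 1d -dox the receptors' log2 fold changes ran from -0.16 to 0.16, 0 of the 7 passed by limma (0 at an unadjusted p under 0.05), DESeq2 or edgeR, and 0.0143% of all genes were called. No receptor was without overlap between them, against 7.8% of all genes.

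**Figure D4:**
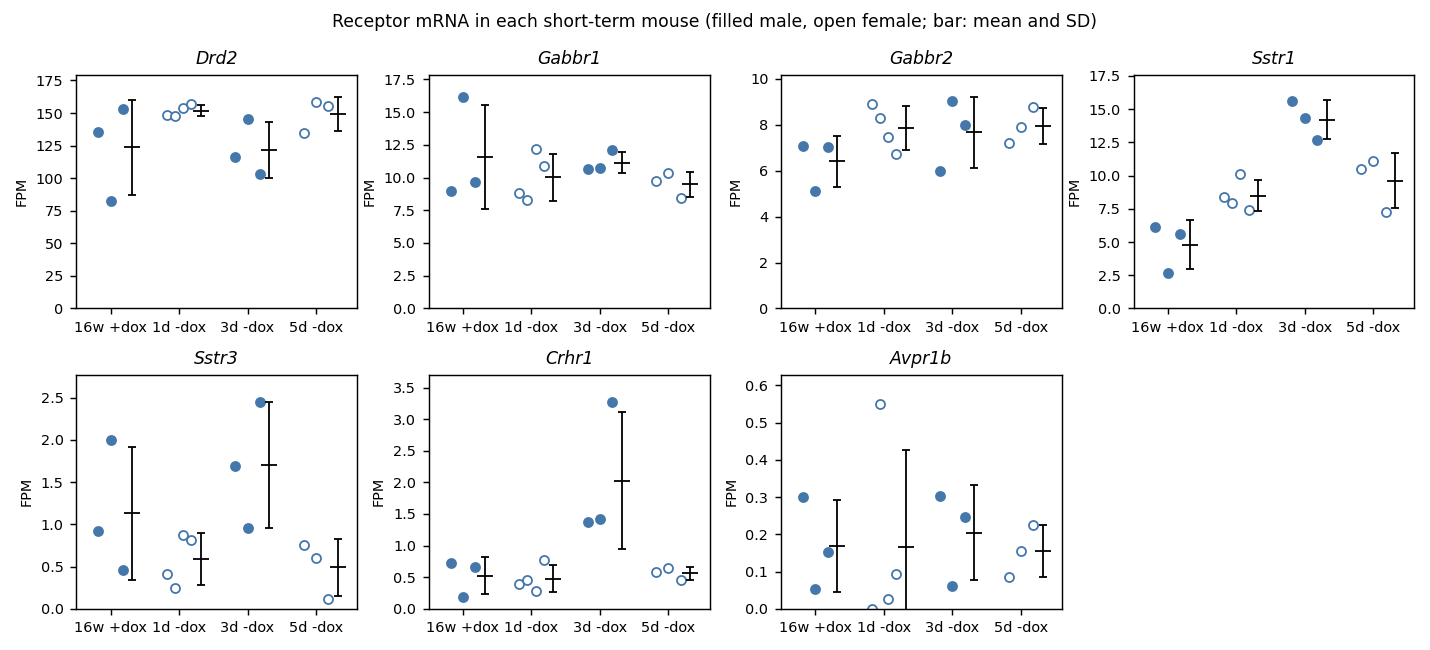
Level in FPM of the 7 receptor genes listed for the short-term experiment in each of its 13 mice (filled points male, open points female), with the mean and SD of the 16w +dox, 1d -dox, 3d -dox and 5d -dox groups; each panel has its own axis from 0. Sstr1 is lower in the 3 16w +dox mice than in every mouse off dox, and Crhr1 is highest in the 3d -dox mice.

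Of the 77 genes listed as carrying these receptors' signals, 9 (11.7%) were called between 6w+dox and 12w+dox, 6 (7.79%) between 12w+dox and 12w-res and 9 (11.7%) between 6w+dox and 12w-res. Of all genes tested, 7.2%, 11.3% and 11.6% were called, so the called genes named next are single genes and not a result about the pathway. Of 18 heterotrimeric G protein genes, 1 was called between 6w+dox and 12w+dox (Gnb4, a beta subunit, higher by a log2 fold change of 1.41 ± 0.17, SE; limma, adjusted p = 0.00025) and 0 in the other long-term comparisons by limma, DESeq2 or edgeR, with 8 and 9 at an unadjusted p under 0.05 by limma. Of 24 genes of the cyclic AMP arm, 3 rose and 1 fell from 6 to 12 weeks on dox. Those that rose were the phosphodiesterases Pde4b (1.54) and Pde10a (1.29) and the adenylyl cyclase Adcy3 (1.22), and the one that fell was the adenylyl cyclase Adcy2 (-1.48). In 12w-res the adenylyl cyclases Adcy7 (-1.70) and Adcy6 (-1.02) were lower than at 12w+dox. Against 6w+dox, Pde4b (1.15), Prkar1a (1.12), a regulatory subunit of protein kinase A, Pde10a (1.07) and Adcy3 (1.05) were higher in 12w-res and 2 genes were lower. The median log2 fold changes of this list were 0.31, -0.05 and 0.21 in these comparisons.

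The phospholipase C and calcium arm, 11 genes, had 0 calls by limma, DESeq2 or edgeR from 6 to 12 weeks on dox and 1 gene at an unadjusted p under 0.05 by limma. In 12w-res the inositol trisphosphate receptor Itpr2 was higher than at 12w+dox (1.49 ± 0.23, SE; limma, adjusted p = 0.00020) and than at 6w+dox (1.09). Of 3 listed GIRK channel genes, potassium channels that inhibitory receptors open, Kcnj9 rose from 6 to 12 weeks on dox (1.40 ± 0.21, SE; limma, adjusted p = 0.00078), and all 3 had values above 0. Of 21 desensitization genes, Rgs16 (1.55) and Rgs8 (1.44) rose from 6 to 12 weeks on dox and Rgs2 (-1.92) fell. The RGS proteins they encode end G protein signals. In 12w-res Rgs12 (-1.59), Rgs8 (-1.52) and Rgs16 (-1.03) were lower than at 12w+dox, and Rgs2 (-1.50) and Rgs12 (-1.20) were lower than at 6w+dox. In the short-term mice limma called 0 of the 76 signalling genes tested after 1, 3 and 5 days, with 19, 20 and 13 at an unadjusted p under 0.05. DESeq2 called 0, 1 and 0 of them and edgeR 0 at each time.

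Of 14 genes of the ligands and their synthesis, 7 had a line in the long-term experiment. Avp, which encodes vasopressin, fell from 83.1, 28.3 and 28.0 FPM at 6w+dox to between 1.31 and 3.11 FPM at 12w+dox (log2 fold change -3.99 ± 0.39, SE; limma, adjusted p = 0.00014), and it was at 0.845 to 2.60 FPM in 12w-res. The summed neural lobe markers were at 35.4 to 94.1 FPM at 6w+dox against 7.64 to 27.0 FPM at 12w+dox, and their part in the value of Avp was not tested. Gad2, an enzyme that makes GABA, was higher in 12w-res than at 6w+dox (1.21 ± 0.30, SE; limma, adjusted p = 0.0066), at 60.0 to 95.1 FPM against 19.9 to 57.3 FPM. Of the other receptors of the same families, Sstr4 and Oxtr were listed for the long-term mice. Oxtr, the oxytocin receptor, was higher in 12w-res than at 12w+dox (1.27 ± 0.27, SE; limma, adjusted p = 0.0022), and Sstr4 was at 0.0891 to 1.33 FPM in the 12 mice.

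Among themselves the receptors formed no single pattern over the 12 long-term mice. Pearson's r of log2(FPM + 0.5) was 0.92 for Sstr3 with Crhr1, 0.82 for Crhr1 with Avpr1b, 0.81 for Sstr5 with Crhr1 and 0.62 for Gabbr1 with Gabbr2. Drd2 ran opposite to Crhr1 (-0.88), Sstr5 (-0.86) and Sstr3 (-0.77). Over the 13 short-term mice the values were 0.51 for Sstr3 with Crhr1, 0.28 for Crhr1 with Avpr1b and -0.64 for Gabbr1 with Gabbr2, lower than in the long-term mice, while Drd2 with Sstr3 was at -0.80 and Drd2 with Crhr1 at -0.20. The mice share 3 or 4 group levels and their libraries' composition, so these values are descriptions.

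The genes most like each receptor over the 12 long-term mice were sought among 13877 genes with a mean of at least 1 FPM. For Drd2 they were Sncaip (r = 0.959) and Fam63b (0.954), of which Fam63b also followed Drd2 over the 13 short-term mice (0.831, against 0.452 for Sncaip). For Gabbr2 they were Rgs8 (0.952), one of the desensitization genes that were higher at 12w+dox than in both other groups, and Pcdhb9 (0.943), with 0.542 and 0.00205 over the short-term mice. For Gabbr1 they were Zfp523 (0.986) and Lrrc16b (0.982), with 0.179 and -0.154 over the short-term mice. For Sstr1 they were Tox (0.973, and 0.621 over the short-term mice) and Med16 (0.950 and 0.389). For Sstr3 they were Begain (0.957 and 0.506) and Nptx1 (0.946 and 0.575), and for Crhr1 Figf (0.972) and Slc27a2 (0.951, and 0.666 over the short-term mice). For Avpr1b they were Arhgef26 (0.940 and 0.299) and Zfp7 (0.887 and 0.124), for Sstr2 Polr2d (0.965) and Bub3 (0.963), and for Sstr5 Gpr22 (0.939) and Cdkl4 (0.933). Each of the 13 pairs listed in both experiments had a lower r over the short-term mice than over the long-term mice that chose it.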

How the data were processed

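RNA from whole pituitaries was sequenced as paired reads, aligned with STAR 2.5.1b to mm10 and counted over RefSeq genes. The counting tool and its use of strand are not given in the sources used here. The authors deposited 2 tables of a normalized signal, FPM, made with the size factors of DESeq2 after a filter on low reads. Every one of the 183780 long-term and 182091 short-term values was a whole multiple of what 1 read is worth in its library (100%, tolerance 0.1 read), so the reads were recovered. Lines without a gene name (2 long-term, and 4 short-term with 68.8% to 75.0% of the reads) were left out of library sizes and tests.

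Log2(FPM + 0.5) was fitted with limma 3.58.1 (trended variance, R 4.3.3) over all groups of a table, for genes that reached 10 reads in over 50% of any group's mice, and p-values were adjusted by Benjamini-Hochberg over all 15315 or 13958 genes tested. The planned test assumed this normalized unit. DESeq2 1.42.0 and edgeR 4.0.16 on the recovered reads, other scalings, pseudocounts, filters, covariates and leaving out each mouse were the alternatives. The steps were tested on simulated data. Intervals and floors cover counting error only where they come from reads. The mice are separate animals by the labels.

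The receptors, gene lists and tests were chosen with earlier results of these data known. Named genes were the 9 receptors, the 2 genes most alike to each, and from each list at most the 4 called genes with the largest change in a comparison. Levels per kb used the longest GENCODE transcript, known for 14786 and 13615 genes.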

Additional observations from a re-analysis of the deposited data

Results flagged for a closer look

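In 25 groups of 4 or 5 mice examined, 4 held a mouse far from the others by Dixon's criterion. Chance alone gives about 1 in 20 for independent groups of normally spread values. The groups here are different receptors in the same mice, so the 4 cannot be set against that rate. Sstr5 was at 1.05 FPM in 12w+dox replicate 1 and at 0.168 to 0.277 FPM in the other mice of the group. This mouse also had the highest Gh, Prl and Pou1f1 of its group (Pou1f1 53.9 FPM against 1.28 to 7.15 FPM). Crhr1 was at 9.67 FPM in 12w-res replicate 1 and at 3.19 to 5.05 FPM in the others, and Gabbr2 was at 5.51 FPM in the same mouse and at 2.21 to 2.73 FPM in the others. This mouse had the highest Gh, Pou1f1 and Lhb of its group, but its Prl was near the bottom of the group's range. Avpr1b was at 0.550 FPM in 1d -dox replicate 2 and at 0 to 0.0935 FPM in the others. The part of the other cell types in these values was not tested.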

How the results depend on the processing

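Of 1146 values of the receptors under other settings, 1044 kept their direction and side of the threshold, 26 lost the call, 22 gained it and 54 changed sign, 37 of these when 1 mouse was left out. The number of receptors called from 6w+dox to 12w+dox was 5, 7 by DESeq2, 3 in females only and 4 to 6 without 1 mouse. From 12w+dox to 12w-res it was 2, 5 with totals of reads, 3 with totals without Pomc, 4 without a minimum fold change and 2 to 3 without 1 mouse. From 6w+dox to 12w-res it was 5, 7 with totals of reads, 7 without a minimum fold change, 3 with at least 10 reads in every sample and 3 to 6 without 1 mouse. At 3d -dox it was 1, 2 by DESeq2, 0 in a fit of the 2 groups alone and 0 to 1 without 1 mouse. Of all genes, 1102 were called from 6w+dox to 12w+dox, 1452 by DESeq2 and 597 in females only. From 12w+dox to 12w-res 1727 were, 3608 with totals, 1785 with totals without Pomc and 5782 without a minimum fold change. From 6w+dox to 12w-res 1782 were, 2135 with totals, 5172 without a minimum fold change and 1305 with at least 10 reads in every sample. At 3d -dox 18 were, 104 by DESeq2 and 1 in a fit of the 2 groups alone. The cause of these differences between settings was not tested, beyond the smaller samples and gene sets some of these settings use. The number of all genes called ran from 597 to 3433, 1411 to 5782 and 1305 to 5172 in the long-term comparisons and from 0 to 113, 1 to 104, 2 to 140 and 2 to 7 in the short-term ones. Scaling by totals moved the median of all genes to 0.29, -0.61 and -0.33 and the share of higher calls from 43.8% to 76.9%, from 55.3% to 6.76% and from 49.9% to 23.3%. Without Pomc in the totals the medians were 0.22, -0.18 and 0.03 and the shares 71.0%, 36.7% and 55.0%.

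Replicate numbers did not pair the mice (correlations of deviations from -0.165 to 0.237 and from -0.208 to 0.168). With the replicate number as a block, 3 receptors were called from 6w+dox to 12w-res and 0 at 3d -dox. Under the block the log2 fold change of Crhr1 from 12w+dox to 12w-res was 0.080, that of Avpr1b 0.0086 and that of Gabbr2 from 1d -dox to 5d -dox -0.047.

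Other values that changed sign lay between -0.26 (Drd2) and 0.25 (Gabbr1), both at 3d -dox without 1 mouse. Sstr1 between 6 and 12 weeks on dox was -0.019 with sex as a covariate and -0.14 to 0.52 without 1 mouse, and Gabbr1 was -0.019 to 0.53 without 1 mouse. From 12w+dox to 12w-res Sstr5 was -0.015 in females, Crhr1 0.015 by edgeR, 0.034 with sex and -0.33 to 0.13 without 1 mouse, and Avpr1b -0.59 to 0.0086 without 1 mouse. From 6w+dox to 12w-res Gabbr2 was -0.32 to 0.094 without 1 mouse. At 3d -dox Drd2 was -0.024 by DESeq2 and -0.019 or -0.024 by edgeR (TMM or RLE scaling), and Gabbr1 was 0.14 with totals and 0.071 without Pomc. From 1d -dox to 5d -dox Avpr1b was -0.078 by DESeq2 and -0.020 or -0.018 by edgeR, and Gabbr2 was -0.055 with totals and -0.011 without Pomc. Without 1 mouse, values at 1d -dox were -0.32 to 0.097 (Crhr1), -0.30 to 0.081 (Avpr1b) and -0.32 to 0.089 (Gabbr1). At 3d -dox they were -0.26 to 0.18 (Drd2), -0.054 to 0.23 (Avpr1b) and -0.16 to 0.25 (Gabbr1), and at 5d -dox -0.17 to 0.24 (Crhr1), -0.15 to 0.12 (Avpr1b) and -0.38 to 0.024 (Gabbr1). From 1d -dox to 5d -dox they were -0.36 to 0.16 (Sstr3), -0.070 to 0.046 (Drd2), -0.079 to 0.28 (Avpr1b), -0.15 to 0.029 (Gabbr1) and -0.047 to 0.085 (Gabbr2). Depth limited Sstr2, Sstr5, Avpr1b and the short-term values of Crhr1 and Sstr3.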
